A study of Mus musculus with 59 samples.

Results

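The genes described here are 10 regulators of mitochondrial biogenesis, taken by symbol from a table of 47643 gene symbols, and all 10 were found. They are the coactivators Ppargc1a (PGC-1α), Ppargc1b (PGC-1β) and Perm1, the nuclear receptors Esrra and Esrrg (oestrogen-related receptors α and γ) and Ppara and Ppard (PPARα and PPARδ), the nuclear respiratory factors Nrf1 and Gabpa, and the mitochondrial transcription factor Tfam. RNA sequencing covered 59 muscle samples, from the diaphragm, the fast tibialis anterior (TA) and the slow soleus (SOL). The mice were females of the athymic strain NCI Ath/nude, aged 4 months. Every mouse carried a human melanoma xenograft, either one that causes muscle wasting (cachectic, CAC) or one that does not (non-cachectic, NONCAC). Diaphragms came from mice treated with the recombinant myokine Fibcd1 (rFibcd1) or mock treated: 10 CAC rFibcd1, 10 CAC mock, 10 NONCAC rFibcd1 and 9 NONCAC mock. The limb muscles came as 5 CAC and 5 NONCAC samples of TA and 5 and 5 of SOL, and their labels name no rFibcd1.

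The model has limits that bear on every comparison. Each melanoma was 1 tumour stock, so cachexia cannot be told apart from other differences between the 2 tumours, and no group lacks a tumour. Athymic mice lack T cells. The study's own diaphragm analysis counted fewer CAC samples than the labels and the table hold, and all labelled samples are used here. Nothing in the labels ties a column of the table to an animal, so p-values measure the spread between these samples.

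Mitochondrial biogenesis is driven by a relay of transcription factors. PGC-1 coactivators have no DNA-binding domain of their own and act by docking onto factors such as the oestrogen-related receptors, the PPARs and the nuclear respiratory factors, which bind genes for fatty acid oxidation, the citrate cycle and the respiratory chain. Tfam carries the signal into the organelle, where it packages mitochondrial DNA and starts its transcription. In skeletal muscle Ppargc1a answers to exercise, fasting, cold and adrenergic signals, and Perm1, a protein induced by PGC-1 and the oestrogen-related receptors, is made mainly in striated muscle.

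The members lie on separate chromosomes, and positions are given for 9 of them (GRCm38, GENCODE M21 gene models). Ppargc1a spans 51454250 to 51567726 on the minus strand of chromosome 5, and Perm1 spans 156215868 to 156221307 on the plus strand of chromosome 4. Esrra lies at 6910977 to 6921813 on chromosome 19, Esrrg at 187608791 to 188214885 on chromosome 1, Ppara at 85734983 to 85802819 on chromosome 15 and Ppard at 28232700 to 28301474 on chromosome 17. Nrf1 lies at 30047988 to 30153458 on chromosome 6, Gabpa at 84834925 to 84863779 on chromosome 16 and Tfam at 71225464 to 71238280 on chromosome 10. TPM summed all transcripts of a gene, so alternative forms of Ppargc1a were not separated.

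Promoter sequences from RefSeq (GRCm38.p6, 250 bases before to 50 after a start) were held for 9 of the 10 members. They were searched on both strands for AAGGTCA (a half-site of the oestrogen-related receptors), CCGGAAG (a site of GABP, the factor that holds Gabpa), GCATGCG (the core of the NRF1 site), TGACG (the half-site of the cyclic AMP response element) and CACGTG (an E-box). AAGGTCA was in 4.72% of all 32851 promoters and, among the members, only in that of Perm1. CCGGAAG was in 8.86% of all promoters and in those of Tfam and Gabpa. TGACG was in 20.8% of all promoters and in 3 members, GCATGCG in 3.58% and in 4 members, and CACGTG in 7.15% and in no member. A member was counted when any of its promoters matched, and Esrrg and Nrf1 had multiple promoters. Member counts and promoter shares are thus not on the same unit. The 250 bases before the start are shown for Perm1, the member with the largest decrease, for Ppargc1a and for Tfam, each read 5′ to 3′ on its own strand, with the match in capitals. In Perm1 (chr4:156215677-156215926, plus strand) the capitals mark the reverse complement of AAGGTCA, in Ppargc1a (chr5:51567726-51567975, minus strand) that of TGACG, and in Tfam (chr10:71238045-71238294, minus strand) CCGGAAG.
Perm1: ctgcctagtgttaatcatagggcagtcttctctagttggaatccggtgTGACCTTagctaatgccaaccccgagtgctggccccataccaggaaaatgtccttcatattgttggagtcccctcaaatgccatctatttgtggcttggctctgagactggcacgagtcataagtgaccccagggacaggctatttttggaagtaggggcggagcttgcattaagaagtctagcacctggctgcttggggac
Ppargc1a: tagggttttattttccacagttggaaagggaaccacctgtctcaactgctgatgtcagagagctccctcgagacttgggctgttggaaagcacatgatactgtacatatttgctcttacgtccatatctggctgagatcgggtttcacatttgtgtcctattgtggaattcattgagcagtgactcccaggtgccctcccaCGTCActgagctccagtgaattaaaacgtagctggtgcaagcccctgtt
Tfam: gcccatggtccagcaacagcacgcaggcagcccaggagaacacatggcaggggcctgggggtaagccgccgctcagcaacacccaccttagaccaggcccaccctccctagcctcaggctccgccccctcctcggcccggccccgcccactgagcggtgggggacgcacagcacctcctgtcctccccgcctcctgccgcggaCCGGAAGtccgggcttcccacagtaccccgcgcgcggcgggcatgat
A match is a string of letters, and binding was not measured.

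Every member was expressed at 1 TPM or more in all 59 samples. TPM is transcript abundance per length with a fixed sum per library, so levels of different genes can be set side by side. Perm1 was the most abundant member, with a mean of 217 TPM over all samples, followed by Esrra at 100.3 TPM. Ppargc1a (26.2 TPM), Ppara (22.8 TPM), Tfam (19.9 TPM), Ppard (17.8 TPM), Gabpa (17.0 TPM) and Esrrg (15.7 TPM) formed a middle range. Ppargc1b (8.70 TPM) and Nrf1 (3.02 TPM) were the lowest. The members differed in how far they ranged: the highest sample was 19.9 times the lowest for Ppara, 18.4 times for Ppargc1a and 16.9 times for Esrrg, against 1.76 times for Tfam.

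**Figure D1:**
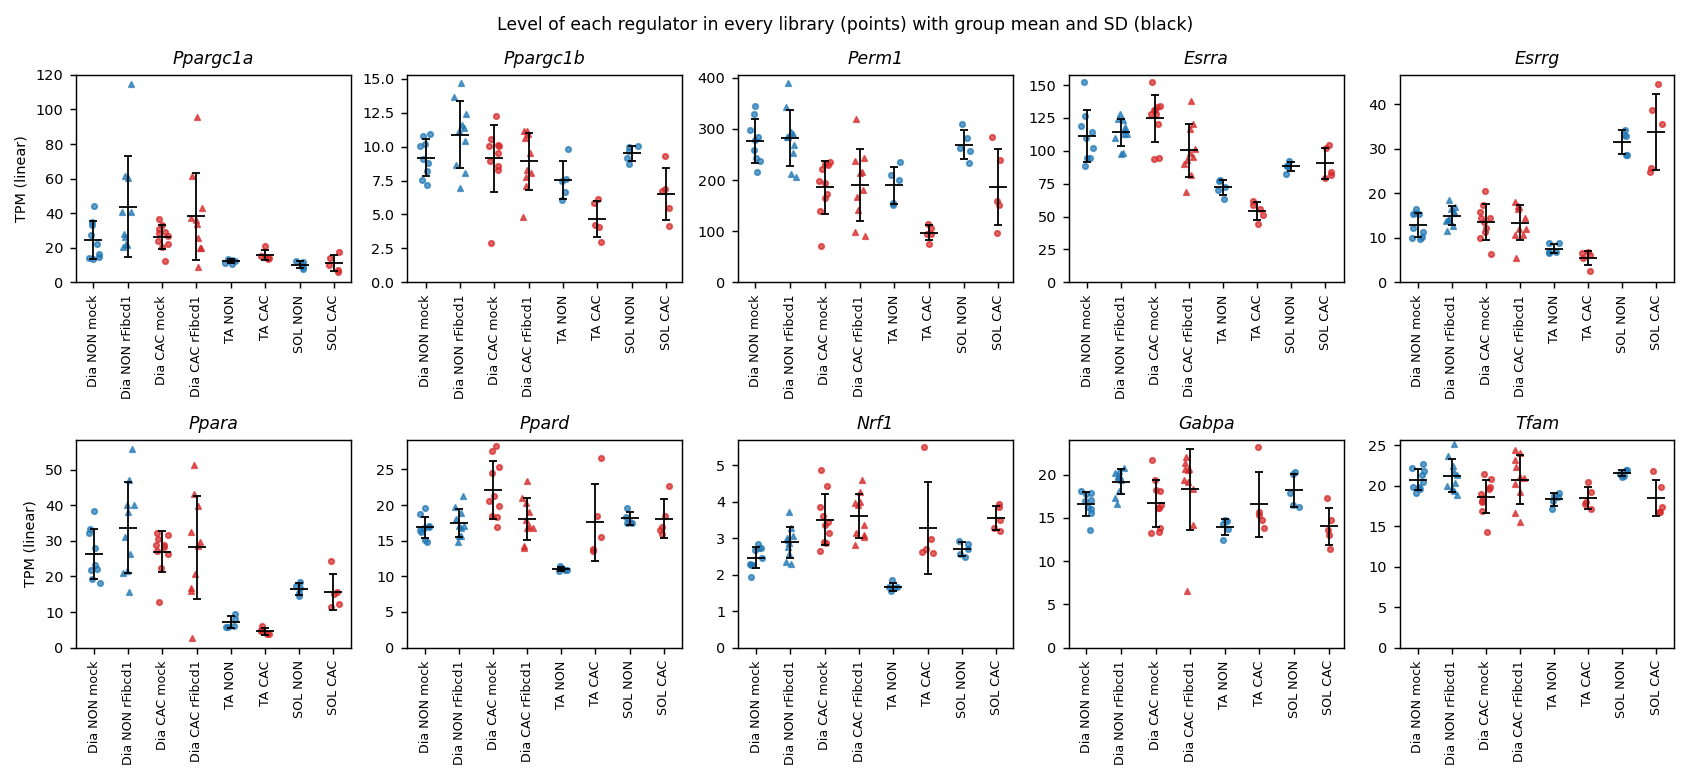
TPM of each of the 10 regulators (vertical axes, linear, from 0) in every library of the 8 groups (NON, non-cachectic, blue; CAC, cachectic, red; triangles, rFibcd1), with the group mean and SD in black. Perm1 in TA sits between 74.3 and 114 TPM in the 5 cachectic samples and between 151 and 235 TPM in the 5 non-cachectic ones, while Ppargc1a in the diaphragm spans 8.61 to 115 TPM.

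Facts of the libraries that touch these genes were as follows. Myosin levels of the NONCAC limb muscles were those of their labels: Myh4, the fast 2B myosin, averaged 11180 TPM in NONCAC TA and 14.8 TPM in NONCAC SOL, and Myh7, the slow myosin, averaged 0.849 and 4945 TPM. One CAC SOL library stood apart with 4989 TPM of Myh4, against 31.2 to 69.8 TPM in the other 4, and the members' calls in SOL are given with and without it. The 13 proteins encoded by mitochondrial DNA took a median of 47.3% of all TPM in NONCAC mock diaphragm, 47.7% in NONCAC TA and 41.0% in NONCAC SOL, against 38.7%, 40.6% and 30.6% in the CAC groups. The median log2 fold change of all tested genes between CAC and NONCAC was 0.20 in mock diaphragm, 0.41 in TA and 0.09 in SOL. With TPM rescaled over nuclear genes alone it was 0.003, 0.225 and -0.12. The cause of the shift was not tested. Fold changes are given on log2(TPM + 1) and, where the call or sign differs, also after median-ratio scaling, which brings that median to within 0.02 of 0. Of all called genes 92% were higher in CAC in mock diaphragm, 78.3% in rFibcd1 diaphragm, 93.7% in TA and 70% in SOL, and 46.6%, 47.1%, 45.3% and 54.2% after scaling. Between muscles of NONCAC mice 88.3% of called genes were higher in diaphragm than in TA and 8.1% higher in TA than in SOL, and 48.2% and 53.2% after scaling. The libraries also fell into 2 states by the level of the processed pseudogene Pcna-ps2 (1 TPM or more, or less). The high state held 9 of 10 CAC mock, 8 of 10 CAC rFibcd1, 6 of 10 NONCAC rFibcd1 and 3 of 9 NONCAC mock diaphragms, all 10 CAC limb samples and none of the 10 NONCAC limb samples. In TA and SOL the state cannot be told apart from the melanoma. In bulk muscle, fewer cells of a type and less RNA per cell cannot be told apart either.

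The muscles of NONCAC mice were compared first, as the levels against which the CAC groups are read. For each pair of muscles the largest difference of any member was that of Esrrg or Ppara, as deposited and after scaling. Esrrg, a receptor known for driving oxidative and slow-fibre genes, was at 28.5, 28.6, 32.9, 33.2 and 34.1 TPM in the 5 SOL samples and at 6.68, 6.78, 6.87, 8.72 and 8.88 TPM in the 5 TA samples. The 9 mock diaphragms lay between, with 9.80, 12.3 and 16.4 TPM as the lowest, median and highest. The 3 sets did not overlap. Esrrg was lower in TA than in SOL by 1.92 on the log2 scale (SE 0.21, limma adjusted p = 1.16e-09) and lower in diaphragm than in SOL (log2 difference -1.24, SE 0.19, limma adjusted p = 1.58e-06), and both calls held after scaling (-1.35 and -1.20).

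Ppara, the receptor that induces fatty acid oxidation genes, had another order. Its lowest, median and highest TPM were 18.02, 23.2 and 38.4 in diaphragm, and the 5 values were 14.5, 15.3, 16.7, 17.3 and 18.6 in SOL and 5.76, 5.90, 6.12, 8.16 and 9.56 in TA. TA stood below both other muscles with no overlap, and diaphragm and SOL overlapped at one end. Diaphragm exceeded TA by 1.73 on the log2 scale (SE 0.18, limma adjusted p = 2.14e-10) and SOL by 0.61 (SE 0.18, limma adjusted p = 0.00701), and TA was below SOL (-1.13, SE 0.20, limma adjusted p = 1.15e-05). All 3 calls held after scaling.

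Ppargc1a was highest in the diaphragm. Markers of other cell types differed between these muscles too. Against TA the NONCAC mock diaphragms were called higher, as deposited and after scaling, in 4 of 5 adipocyte markers (median log2 difference 3.01), all 4 macrophage (2.60), all 4 fibroblast (2.02), all 3 red blood cell (3.05) and all 3 mesothelial markers (5.38). Against SOL 3 of 4 macrophage (1.51), 3 of 4 fibroblast (0.77), all 3 red blood cell (2.16) and all 3 mesothelial markers (5.03) were higher on both scales, and 1 of 5 adipocyte markers was lower. Their part in the members' levels was not tested. NONCAC mock diaphragms had 13.6, 22.4 and 44.3 TPM as lowest, median and highest, TA had 10.7, 11.1, 12.5, 13.1 and 13.4 TPM and SOL had 7.62, 8.89, 9.97, 11.9 and 12.2 TPM. These diaphragms lay above the NONCAC limb samples, though by a narrow gap, and TA and SOL overlapped. The log2 difference was 1.10 against SOL (SE 0.24, limma adjusted p = 4.00e-04), which held after scaling (1.14), and 0.84 against TA (SE 0.24, limma adjusted p = 0.00224), which did not (0.29, limma adjusted p = 0.26). The difference between TA and SOL was 0.26 as deposited (adjusted p = 0.40) and 0.85 after scaling (limma adjusted p = 0.00794). Over the 8 groups Ppargc1a ran from 43.7 ± 29.3 TPM (SD, n = 10) in NONCAC rFibcd1 diaphragm through 38.1 ± 25.0 (n = 10), 26.3 ± 6.95 (n = 10) and 24.5 ± 11.1 TPM (n = 9) in CAC rFibcd1, CAC mock and NONCAC mock diaphragm to 15.7 ± 3.03 and 12.2 ± 1.20 TPM in CAC and NONCAC TA and 11.1 ± 4.68 and 10.1 ± 1.96 TPM in CAC and NONCAC SOL (n = 5 each). Apart from CAC and NONCAC TA, neighbours in that order overlapped.

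In all, 9 members were called higher in diaphragm than in TA, where 72.5% of 13501 tested genes were called, 64% higher and 8.52% lower. After scaling only Ppara was higher (1.22) and Gabpa (-0.32) and Tfam (-0.38) were lower, 3 of 10 where 71.1% of all genes were called (34.3% higher, 36.8% lower). Between diaphragm and SOL, with 38.8% of genes called (16.8% higher, 22.1% lower), 4 members were called: Ppargc1a, Ppara, Esrra (0.32, SE 0.11, limma adjusted p = 0.0194) and, lower, Esrrg. Between TA and SOL, with 69.5% called (5.63% higher, 63.9% lower), 7 members were lower in TA, and after scaling, where 53.7% of genes were called (28.6% higher, 25.1% lower), 5 were called, of which Esrrg and Ppara remained lower and Ppargc1a, Tfam (0.38) and Gabpa (0.24) were higher. With the column number as a block, described with the comparison of melanoma effects, Perm1 was called between TA and SOL as well (-0.51, limma adjusted p = 0.00964, against 0.0504 without the block). Direction for Tfam and Gabpa between TA and the other muscles thus rested on the scaling. So did that of Esrra between TA and SOL, and those of Perm1 and Nrf1 between diaphragm and TA. Perm1 averaged 277 ± 42.8 TPM in diaphragm (SD, n = 9), 269 ± 28.8 TPM in SOL (n = 5) and 190.1 ± 36.3 TPM in TA (n = 5), and its difference between diaphragm and SOL was 0.03 with a 95% interval of -0.39 to 0.45.

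**Figure D2:**
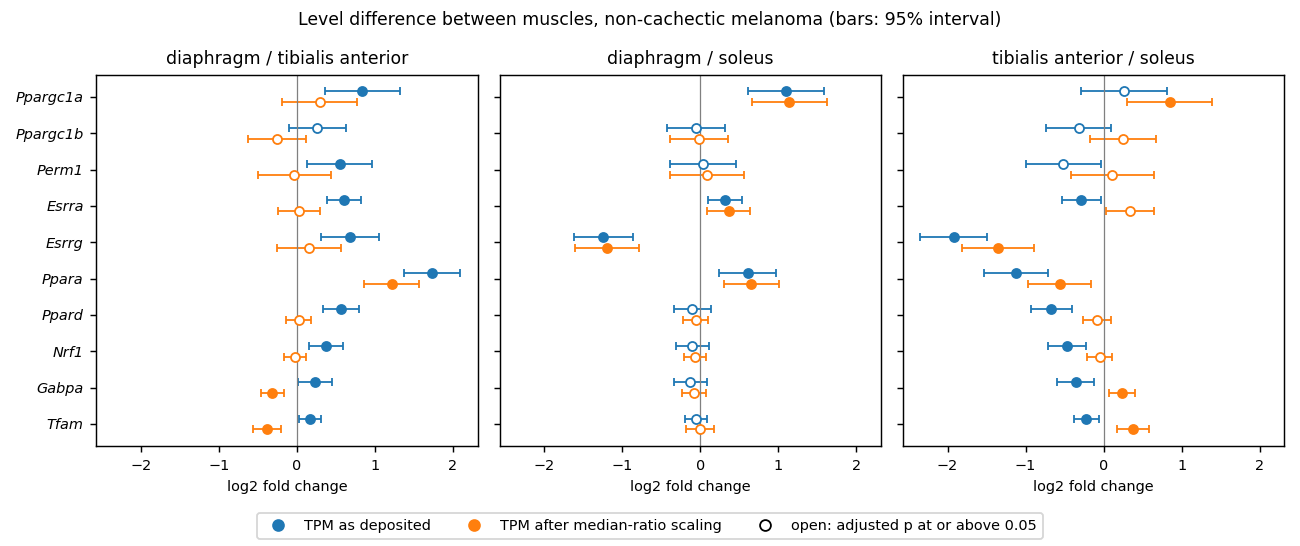
Log2 difference in level (horizontal axis, 95% interval as bars) of each regulator between muscles of NONCAC mice, from TPM as deposited (blue) and after median-ratio scaling (orange); filled points passed an adjusted p of 0.05. Esrrg (-1.24 and -1.92) stands out as lower than in SOL on both scales, and between diaphragm and TA, where 9 members were higher as deposited, Ppara alone is called higher after scaling and Gabpa and Tfam are called lower.

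Cachexia was then compared within each muscle. Where groups are said not to overlap, the share of all genes that did not overlap was not computed. In TA 60.2% of all genes were called. Perm1 was lower with the cachectic melanoma in diaphragm and TA, the only member called lower in both as deposited. In TA the 5 CAC samples had 74.3, 94.6, 95.04, 106 and 114 TPM and the 5 NONCAC samples 151, 155, 199, 211 and 235 TPM. The groups did not overlap, and Perm1 fell by 0.96 on the log2 scale (SE 0.15, limma adjusted p = 9.44e-04). In mock diaphragm the lowest, median and highest were 70.7, 196 and 236 TPM in CAC and 216, 279 and 345 TPM in NONCAC. All 10 CAC samples lay below the NONCAC median and 6 lay below every NONCAC sample, and the log2 change was -0.63 (SE 0.19, limma adjusted p = 0.0123). Under rFibcd1 the values were 89.9, 198 and 319 TPM in CAC and 206, 284 and 391 TPM in NONCAC, with 9 of 10 CAC samples below the NONCAC median and a log2 change of -0.64 (SE 0.19, adjusted p by limma 0.0280).

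SOL gave Perm1 values of 97.4, 151, 159, 239.5 and 284 TPM with the cachectic melanoma and 233, 257, 263, 282 and 310.3 TPM without. The 2 highest CAC samples overlapped the NONCAC range. The log2 change of -0.62 (SE 0.24) had a 95% interval of -1.14 to -0.10 and a limma adjusted p of 0.077. After scaling Perm1 was at -0.86 in mock diaphragm, -0.71 in rFibcd1 diaphragm, -1.46 in TA (all called) and -0.71 in SOL (limma adjusted p = 0.078), and with TPM over nuclear genes it was called in SOL (-0.86, limma adjusted p = 0.0307). With the library state as a term the mock diaphragm change was -0.59 (limma adjusted p = 0.059), Tfam being the member called lower in that fit, and among the 26 high-state diaphragms it was -0.69 (limma adjusted p = 0.16), so its size held and its call did not. Under rFibcd1 the call was lost when any 1 of 5 libraries was left out (3 CAC and 2 NONCAC, log2 changes of -0.53 to -0.60, highest limma adjusted p = 0.068), and with a term for the clock index (-0.56, limma adjusted p = 0.11).

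The coactivators differed among themselves. Ppargc1b was lower in both limb muscles. TA had 2.98, 4.09, 4.21, 5.86 and 6.12 TPM in CAC and 6.10, 6.65, 7.46, 7.64 and 9.82 TPM in NONCAC, with 4 of 5 CAC samples below all NONCAC ones, and Ppargc1b changed by -0.61 (SE 0.17, limma adjusted p = 0.0132). SOL had 4.14, 5.49, 6.71, 6.86 and 9.29 TPM against 8.75, 9.15, 9.70, 9.96 and 10.03 TPM, again with 4 of 5 below, and Ppargc1b changed by -0.52 (SE 0.16, limma adjusted p = 0.0296). In mock diaphragm Ppargc1b was at -0.06 (95% interval -0.38 to 0.27), and the difference of this change from that in TA was 0.56 (95% interval 0.04 to 1.07, limma adjusted p = 0.17), or 0.64 with the column number as a block (limma adjusted p = 0.0332). The TA call held whichever library was left out, and the SOL call was lost without any 1 of 4 NONCAC samples (highest limma adjusted p = 0.067), with no filter on low values (limma adjusted p = 0.054) and by the Dunn test (adjusted p over all genes 0.090).

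Ppargc1a itself gave no stable direction. In TA the 5 CAC samples had 13.8, 13.9, 14.7, 15.1 and 21.0 TPM and lay above all NONCAC samples, whose values are given with the muscle levels. The log2 change of 0.33 (SE 0.13, limma adjusted p = 0.0467) was below the median of all genes (0.41), lost its call in 7 of 10 fits that left out 1 library, among them the fit without the highest CAC sample (0.22, limma adjusted p = 0.10), and turned to -0.14 after scaling (limma adjusted p = 0.55). In SOL the change was 0.05 (95% interval -0.48 to 0.57). In mock diaphragm the lowest, median and highest were 12.3, 27.9 and 36.4 TPM in CAC against 13.6, 22.4 and 44.3 TPM in NONCAC, which overlapped almost wholly, and the change was 0.17 (95% interval -0.48 to 0.81, limma adjusted p = 0.69). It was -0.42 among high-state libraries, where the 3 NONCAC mock samples had a mean of 37.4 TPM and the 9 CAC mock samples one of 27.9 TPM, while the 6 low-state NONCAC samples averaged 18.1 TPM. The interval over all samples leaves room for a change of either sign.

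Among the nuclear receptors, the change in TA was the clearest. Esrra had 44.5, 51.1, 56.0, 58.6 and 61.6 TPM in CAC TA and 63.4, 70.1, 72.8, 76.7 and 78.0 TPM in NONCAC TA. The groups did not overlap, and Esrra fell by 0.41 (SE 0.11, limma adjusted p = 0.0110). Ppara had 3.75, 3.77, 4.60, 4.89 and 6.20 TPM in CAC TA, 4 of 5 below every NONCAC sample, and fell by 0.52 (SE 0.16, limma adjusted p = 0.0199). Both calls held in all 10 fits that left out 1 library, and by the Dunn test that for Ppara did not (adjusted p over all genes 0.067). Esrrg was at -0.45 (SE 0.20, limma adjusted p = 0.061) and was called after scaling (-0.86, limma adjusted p = 0.0239). In SOL none of the 4 receptors was called, and their changes lay between -0.10 (Ppara) and 0.07 (Esrrg).

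Ppard, the PPAR that is broadly expressed in muscle, moved the other way. CAC TA had 13.5, 13.8, 15.5, 18.4 and 26.6 TPM against 10.7, 10.85, 10.95, 11.2 and 11.5 TPM in NONCAC TA, without overlap, and Ppard rose by 0.58 (SE 0.16, limma adjusted p = 0.0123). In mock diaphragm it had 16.9, 20.9 and 28.3 TPM as lowest, median and highest in CAC and 14.9, 16.7 and 19.6 TPM in NONCAC, with 7 of 10 CAC samples above every NONCAC one, and rose by 0.36 (SE 0.09, limma adjusted p = 0.00313). After scaling the increases were 0.11 in TA and 0.14 in mock diaphragm (limma adjusted p = 0.19 and 0.41) and neither was called, while with TPM over nuclear genes the TA value of 0.37 was (limma adjusted p = 0.0172). The mock diaphragm call held with the library state as a term (0.32, limma adjusted p = 0.0253) and not among high-state libraries alone (0.35, limma adjusted p = 0.088). Under rFibcd1 Ppard averaged 18.04 TPM in CAC and 17.5 TPM in NONCAC diaphragms and was not called.

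Nrf1, which binds promoters of respiratory chain and mitochondrial import genes, rose with the cachectic melanoma in TA, SOL and mock diaphragm. CAC TA had 2.59, 2.62, 2.70, 2.97 and 5.50 TPM against 1.56, 1.63, 1.66, 1.66 and 1.85 TPM, and CAC SOL had 3.20, 3.29, 3.50, 3.87 and 3.93 TPM against 2.48, 2.58, 2.71, 2.83 and 2.92 TPM. Neither pair of groups overlapped. The log2 fold change was 0.64 in TA (SE 0.16, limma adjusted p = 0.00782) and 0.30 in SOL (SE 0.08, limma adjusted p = 0.0262). Mock diaphragms had 2.64, 3.41 and 4.86 TPM as lowest, median and highest in CAC and 1.94, 2.45 and 2.83 TPM in NONCAC, 9 of 10 CAC samples lying above every NONCAC one, and the log2 change was 0.37 (SE 0.09, limma adjusted p = 0.00145). The mock diaphragm call held with the library state as a term (0.26, limma adjusted p = 0.0318) and not among high-state libraries alone (0.29, limma adjusted p = 0.13). Under rFibcd1 Nrf1 averaged 3.615 TPM in CAC and 2.885 TPM in NONCAC diaphragms. It was not called there, except in 8 of 39 fits that left out 1 library. The SOL call was lost without any 1 of 4 samples (highest limma adjusted p = 0.071). After scaling Nrf1 was called in TA (0.28) and SOL (0.23) and reached 0.20 in mock diaphragm (limma adjusted p = 0.058). With TPM over nuclear genes it was called in TA (0.54) and mock diaphragm (0.22) and not in SOL (0.13, limma adjusted p = 0.24). At these low levels log2(TPM + 1) understates the change: the CAC to NONCAC ratio of means was 1.96 in TA, 1.31 in SOL and 1.42 in mock diaphragm. The CAC mean in TA included the sample at 5.50 TPM, and the medians there were 2.70 TPM in CAC and 1.655 TPM in NONCAC. After scaling the TA means were 3.50 and 2.62 TPM.

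Gabpa, the DNA-binding subunit of GABP, had 11.4, 13.1, 13.6, 14.7 and 17.3 TPM in CAC SOL and 16.3, 16.5, 17.9, 20.1 and 20.3 TPM in NONCAC SOL. With 4 of 5 CAC samples below all NONCAC ones, it fell by 0.36 (SE 0.11, limma adjusted p = 0.0354), a call lost in 6 of 10 fits that left out 1 library, with no filter on low values (limma adjusted p = 0.052) and by the Dunn test (adjusted p over all genes 0.090). In TA it was at 0.21 as deposited (limma adjusted p = 0.18) and at -0.26 after scaling (limma adjusted p = 0.00310). Tfam, the member with the narrowest range, had means of 18.5 ± 1.36 TPM in CAC and 18.3 ± 0.768 TPM in NONCAC TA (SD, n = 5 each) and 18.6 ± 2.04 and 20.7 ± 1.30 TPM in CAC (n = 10) and NONCAC (n = 9) mock diaphragm. It was not called in any muscle as deposited, was called lower in mock diaphragm with a term for the library state (-0.25, limma adjusted p = 0.0150, 15.3% of genes called) or for the clock index (-0.18, limma adjusted p = 0.0455, 29% of genes called), and was called lower in all 3 after scaling, at -0.46 in TA, -0.31 in SOL and -0.37 in mock diaphragm.

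By count, 7 of 10 members were called in TA, 3 higher and 4 lower, where 60.2% of 11105 genes were called, 56.4% higher and 3.78% lower. In SOL 3 were called, 1 higher and 2 lower (25.1% of 11957 genes, 17.5% higher and 7.54% lower), against 0 higher and 5 lower with TPM over nuclear genes (Ppargc1b, Perm1, Ppard, Gabpa and Tfam), where 7.46% of genes were higher and 23% lower. Without the CAC SOL library of high Myh4 only Ppargc1b was called there (-0.40, limma adjusted p = 0.0462, 21.6% of genes called), and Nrf1 was at 0.27 (limma adjusted p = 0.058), Gabpa at -0.34 (limma adjusted p = 0.071) and Perm1 at -0.59 (limma adjusted p = 0.13). In mock diaphragm 3 were called, 2 higher and 1 lower (33.5% of 13426 genes, 30.9% higher and 2.67% lower). Under rFibcd1 only Perm1 was called in the diaphragm (9.11% of genes, 7.14% higher and 1.97% lower). The members' median log2 fold change was -0.20 in TA, -0.06 in SOL and 0.04 in mock diaphragm, against medians of 0.41, 0.09 and 0.20 for all genes. After scaling 1 member was called higher and 7 lower in TA, 1 and 3 in SOL, 0 and 2 in mock diaphragm and 0 and 1 under rFibcd1, and the members' median was -0.66, -0.15, -0.18 and -0.28. Of all genes 18.2% were then higher and 22% lower in TA, 15.2% and 12.9% in SOL, 7.38% and 8.47% in mock diaphragm and 4.29% and 4.81% under rFibcd1.

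**Figure D3:**
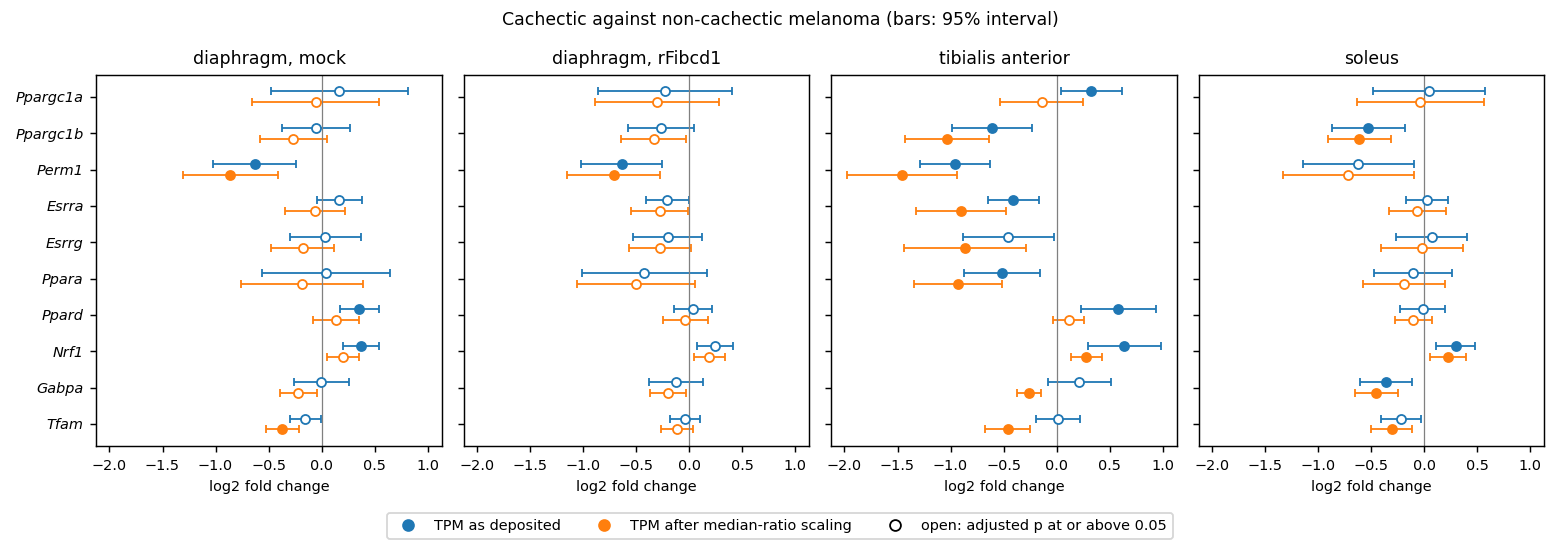
Log2 fold change of CAC against NONCAC (horizontal axis, 95% interval as bars) for each regulator in the 4 comparisons, from TPM as deposited (blue) and after median-ratio scaling (orange); filled points passed an adjusted p of 0.05. Perm1 lies left of 0 in all panels, from -0.62 to -0.96 as deposited, and the TA panel shows the widest shift between the 2 scales.

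Other signals moved with cachexia in the same samples. In TA all 3 tested macrophage markers of 4 rose, and their summed level ran from 29.8 to 224 TPM in CAC and from 19.3 to 37.4 TPM in NONCAC. Both tested neutrophil markers of 3 rose as well, with sums of 7.01 to 53.5 and 1.05 to 3.81 TPM. The slow-fibre list, 4 genes higher and 1 lower of 5, summed to 25.7 to 46.4 TPM in CAC and 12.5 to 31.5 TPM in NONCAC, and the 2A myosin Myh2 fell (-0.75). After scaling 1 slow-fibre gene was higher and 1 lower, 2 macrophage and both neutrophil markers were higher, and Myh2 was lower. Both tested neutrophil markers also rose in SOL (7.33 to 31.7 against 3.02 to 4.66 TPM) and all 3 in mock diaphragm (9.56 to 57.1 against 3.00 to 20.6 TPM). In SOL 2 of 4 fibroblast markers fell and the sums were 190.3 to 552 TPM in CAC and 507 to 697 TPM in NONCAC, while in TA 2 of 4 rose on both scales (207 to 434 against 129 to 244 TPM). Of 4 endothelial markers 2 rose and 1 fell in TA on both scales (sums of 103 to 212 against 81.2 to 111 TPM), 2 rose in mock diaphragm (168 to 242 against 153 to 205 TPM; 1 higher and 1 lower after scaling), and 1 rose and 1 fell in SOL. In mock diaphragm 1 of 5 adipocyte markers (Cfd, list median 1.12), 1 of 4 fibroblast markers (Dcn), the slow myosin Myh7 and the fast troponin Tnnt3 rose as well, and none of the 4 did after scaling. In SOL the macrophage marker Cd68 rose on both scales, and the 2X and 2B fibre list, with 0 of 5 genes called, had a median of 1.48 and sums of 3837 to 18980 TPM in CAC against 4258 to 6529 TPM in NONCAC. None of these markers was at 0 in every library of a group. One CAC TA library had a mitochondrial share of 25.1% and the highest Ppard, Nrf1 and Gabpa of its group (26.6, 5.50 and 23.2 TPM), and without it Ppard and Nrf1 were still called (lowest changes 0.43 and 0.48 over all fits that left out 1 library). The part of these signals in the members' changes was not tested.

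The effect of the cachectic melanoma was compared between muscles in 1 fit. Esrra differed between mock diaphragm and TA, where it was at 0.17 (95% interval -0.04 to 0.38) and -0.41 in the separate fits. The difference was 0.57 (SE 0.15, limma adjusted p = 0.0226) as deposited and 0.84 after scaling, and without a block it was the only member called (5.04% of 13501 genes, 0.711% with the more positive and 4.33% with the more negative change in diaphragm). Without the CAC TA library of low mitochondrial share it was 0.51 (limma adjusted p = 0.069), and without 1 NONCAC TA library 0.55 (limma adjusted p = 0.0502). Same-numbered columns of TA and diaphragm deviated together. With that number as a block 4 members had the more positive change in diaphragm (17.2% of genes called, 2.16% more positive and 15% more negative). They were Esrra (0.68, limma adjusted p = 7.15e-04), Esrrg (0.67, limma adjusted p = 0.0324), Ppargc1b (0.64, given above) and Ppara (0.59, limma adjusted p = 0.0493). Between TA and SOL, Ppard (0.60, SE 0.19, limma adjusted p = 0.0232) and Gabpa (0.57, SE 0.17, limma adjusted p = 0.0167) had the more positive change in TA (20.4% of genes called, 19.1% with a more positive and 1.26% with a more negative change in TA). Without the library of low mitochondrial share they were 0.44 (limma adjusted p = 0.063) and 0.45 (limma adjusted p = 0.0447), and without the SOL library of high Myh4 both were called (0.55 each). After scaling neither was called (0.21 and 0.18) and Esrra was instead (-0.85, limma adjusted p = 0.00840, 11.6% of genes called). With the block Ppard, Gabpa, Nrf1 (0.34) and Tfam (0.23) had the more positive change in TA and Esrra (-0.44) the more negative one (41.2% of genes called, 38.7% more positive and 2.56% more negative). No member was called between mock diaphragm and SOL without the block (2.52% of genes called, 1.95% more positive and 0.57% more negative in diaphragm), where 2 members had an unadjusted limma p under 0.05, Gabpa (0.0196) and Ppard (0.0289), against 15.8% of all genes at that threshold. With the block Gabpa was called there (0.43, limma adjusted p = 0.0358, 7.36% of genes called), though not every same-numbered pair of these muscles deviated together. The Perm1 differences between muscles were 0.33, -0.01 and -0.34, with 95% intervals of -0.26 to 0.92, -0.60 to 0.58 and -1.02 to 0.33.

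Treatment with rFibcd1 was compared within each melanoma in the diaphragm. By limma 0 members were called in CAC mice (0.0447% of 13426 genes, 0.0372% higher and 0.00745% lower), in NONCAC mice (0.417%, 0.35% higher and 0.067% lower) and for the interaction of melanoma and treatment (0.0223%, 0.00745% higher and 0.0149% lower). The Dunn test gave 0 in CAC mice, where it called 0 of 13426 genes, and 0 in NONCAC mice (0.104% of genes called). At an unadjusted limma p under 0.05 there were 2 in CAC mice, 1 in NONCAC mice and 2 for the interaction, against 10.5%, 17.4% and 8.79% of all genes. Perm1 averaged 191 ± 70.3 against 186 ± 51.5 TPM in CAC (SD, n = 10 each; log2 change 0.01, 95% interval -0.37 to 0.39) and 283 ± 55.1 (n = 10) against 277 ± 42.8 TPM (n = 9) in NONCAC mice (0.02, -0.37 to 0.41).

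The 2 members past an unadjusted p in CAC mice were receptors. Esrra had 68.5, 96.8 and 138 TPM as lowest, median and highest with rFibcd1 and 93.6, 129 and 152 TPM with mock, and 9 of 10 treated samples lay below the mock median. Its log2 fold change was -0.32 (95% interval -0.53 to -0.12, unadjusted limma p = 0.00287, adjusted p = 0.25). Ppard had 14.0, 17.5 and 23.4 TPM against 16.9, 20.9 and 28.3 TPM, with 8 of 10 treated samples below the mock median and a change of -0.28 (95% interval -0.45 to -0.10, unadjusted limma p = 0.00339, adjusted p = 0.25). The interaction terms were -0.37 for Esrra and -0.32 for Ppard (unadjusted limma p = 0.0146 and 0.0145, both adjusted p = 0.55). Among high-state libraries Gabpa and Tfam, each at 0.25, were called higher with rFibcd1 in CAC mice (limma adjusted p = 0.0366 and 0.0315), where 5.57% of 14159 genes were called, 4.76% higher and 0.812% lower.

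Relative to its mean, Ppargc1a had the widest spread of the members in both treated groups, with a coefficient of variation of 65.5% in CAC and 66.9% in NONCAC rFibcd1 diaphragms, against 51.6% and 37.8% for Ppara, the next. It was also the widest in NONCAC mock diaphragms (45.1%, against 26.8% for Ppara), and not in CAC mock ones (26.4%, against 29.4% for Esrrg). NONCAC rFibcd1 diaphragms had 20.7, 34.4 and 115 TPM as lowest, median and highest against 13.6, 22.4 and 44.3 TPM in NONCAC mock, and 3 of 10 treated samples lay above every mock sample. The log2 fold change was 0.71 (95% interval 0.06 to 1.36, unadjusted limma p = 0.0323, adjusted p = 0.28). In CAC mice the values were 8.61, 34.9 and 95.5 TPM against 12.3, 27.9 and 36.4 TPM, the treated samples exceeding the mock range at both ends, with a change of 0.31 (95% interval -0.32 to 0.94). The SD was 25.0 TPM with rFibcd1 and 6.95 TPM with mock in CAC mice. A single CAC rFibcd1 sample at 95.5 TPM (next 61.8 TPM) added to that SD and to the coefficient of variation, and neither was computed without it. A clock index, made from 8 circadian genes, had medians of -0.79 in NONCAC rFibcd1 and -3.99 in NONCAC mock diaphragms, and with it as a term the NONCAC change in Ppargc1a was 0.36. With the library state as a term it was 0.47, and among high-state libraries 0.14.

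Brown fat also makes Ppargc1a, and its markers were read in the same diaphragms. The sample with the highest Ppargc1a (115 TPM) had 2.88 TPM of the brown-fat gene Ucp1, and the second highest (95.5 TPM) had 0.261 TPM. The sample with the highest Ucp1 (217 TPM) had 26.1 TPM of Ppargc1a, and the next had 56.3 TPM of Ucp1 and 35.9 TPM of Ppargc1a. The adipocyte gene Adipoq was at 104, 39.1, 38.6, 124 and 26.3 TPM in the 5 samples with the highest Ppargc1a, in falling order of Ppargc1a, and at 475 and 124 TPM in the 2 with the highest Ucp1. The part of fat in the Ppargc1a levels was not tested. Albumin, a liver transcript, was at 2.74, 18.8, 945, 317 and 11.97 TPM in the same 5 samples and order. The values of 945 and 317 TPM were the highest albumin of the CAC and NONCAC rFibcd1 groups, and the mock groups reached 1516 TPM in CAC and 5724 TPM in NONCAC. The part of liver transcripts was not tested either.

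Covariation within groups was measured over the 39 diaphragms, as the correlation of each member's deviation from its group mean with that of Ppargc1a (9 pairs, p from 100000 permutations within groups, two-sided, adjusted over the 9). Ppara followed Ppargc1a most closely (Pearson r = 0.69, permutation adjusted p = 5.40e-04, Spearman rho = 0.63, permutation adjusted p = 7.20e-04) and did so without the 2 samples whose Ppargc1a deviation was farthest from the median (r = 0.565). Gabpa (r = 0.57, rho = 0.47), Esrrg (r = 0.50, rho = 0.36) and Tfam (r = 0.45, rho = 0.35) passed as well by permutation (adjusted p = 0.00103, 0.00498 and 0.0205 for r and 0.00428, 0.0341 and 0.0379 for rho). Without the 2 farthest samples these were r = 0.44, 0.40 and 0.29, and after scaling r was 0.64 for Ppara, 0.45 for Gabpa, 0.38 for Esrrg and 0.125 for Tfam, of which Ppara and Gabpa passed by r and, of these, Ppara by rho. For Perm1 r was 0.25 (permutation adjusted p = 0.18) and rho 0.36 (permutation adjusted p = 0.0354), and for Ppargc1b r was -0.07 (permutation adjusted p = 0.68) and rho -0.21 (permutation adjusted p = 0.23). For Esrra, Ppard and Nrf1 r lay between 0.29 and 0.34 and did not pass, while rho lay between 0.41 and 0.42 and did. After scaling rho was 0.26, 0.22 and 0.23 for these and 0.27 for Perm1 (each permutation adjusted p = 0.23), and among high-state libraries 0.26, 0.24, -0.01 and 0.34, and none passed in either.

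Because the library states differ in Ppargc1a, the values within states were set beside the pooled ones. Among the 26 high-state diaphragms r was 0.58 for Ppara (unadjusted permutation p = 0.0184, adjusted p = 0.17; rho = 0.55, permutation adjusted p = 0.14), 0.06 for Gabpa, 0.07 for Esrrg, 0.33 for Tfam and 0.26 for Perm1. Among 12 low-state diaphragms, the group with 1 such sample left out, r was 0.76 for Ppara (permutation adjusted p = 0.051) and rho 0.895 (permutation adjusted p = 0.0147), which passed. There r was 0.55 for Gabpa, 0.31 for Esrrg, -0.13 for Tfam, 0.615 for Nrf1, 0.81 for Ppard (permutation adjusted p = 0.056; rho = 0.77, permutation adjusted p = 0.091) and 0.85 for Perm1 (permutation adjusted p = 0.0491; rho = 0.83, permutation adjusted p = 0.0147). No pair passed adjustment in the high state by r or rho. The relation with Ppara was positive in both states, and those with Gabpa and Esrrg were near 0 in the larger.

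The genes with patterns most like Perm1 over the 8 group means (4830 genes compared, Pearson r as a description over 8 points) were Pde7b (0.99), Mb, which encodes the oxygen store myoglobin (0.97), Tmem25 (0.96), Trp53inp2 (0.95) and Itgb1bp2 (0.95). For Ppargc1a they were Rnpep (0.98), Vps37b (0.97) and the immunoglobulin genes Igkc (0.97), Igkv1-110 (0.97) and Igkv8-24 (0.965), the last 3 being plasma-cell transcripts.

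Genes downstream of the relay were read from lists of the pathway. Of all genes 7.54% were called lower in SOL, 3.78% in TA, 2.67% in mock diaphragm and 1.97% in rFibcd1 diaphragm. After scaling 12.9%, 22%, 8.47% and 4.81% were. These shares stand beside the counts of lower genes in this and the following lists. Of 23 genes of fatty acid uptake and oxidation, 17 fell in SOL and none rose, with Acot2 at -1.36 (SE 0.14) and Ech1 at -1.07 (SE 0.18) the lowest. All list values in SOL include the CAC library of high Myh4, whose part in them was not tested. In TA 6 fell and 1 rose, led by Fabp3 (-1.30), a fatty acid carrier, and Acsl1 (-0.71), which activates fatty acids, while the fatty acid transporter Cd36 was higher (0.53, and 0.03 after scaling). In mock diaphragm 6 fell, with Acsl1 at -0.52 and Hadhb at -0.43, and Cd36 rose (0.45, and 0.22 after scaling). The list's median change was -0.54 in SOL, -0.23 in TA and -0.15 in mock diaphragm. After scaling 18, 17 and 9 of the 23 were called lower. Under rFibcd1 3 fell in the diaphragm and none rose (4 lower after scaling).

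Transcripts of the mitochondrial genome were lower too. Of the 13 protein genes, 10 fell in mock diaphragm, 5 in TA and 9 in SOL, and none rose. After scaling 12, 6 and 8 were called lower. Of 29 genes of the nuclear-encoded respiratory chain, 12 fell and 2 rose in TA, 2 fell and 1 rose in SOL, and 2 fell and 3 rose in mock diaphragm. Cox7a1, the muscle form of a cytochrome oxidase subunit, was among the lowest in TA (-0.88) and mock diaphragm (-0.36), and Ndufs1 of complex I in TA (-0.46) and SOL (-0.52). After scaling 27 of the 29 were called lower in TA, 4 in mock diaphragm and 2 in SOL. The lists were not tested against each other. Of 12 citrate cycle genes, 4 fell and 1 rose in TA and 2 fell in SOL, and Suclg1 fell in all 3 muscles (-0.37 in TA, -0.36 in SOL and -0.20 in mock diaphragm, where it was the only gene of the list called). After scaling 9 of the 12 were lower in TA, 2 in SOL and 4 in mock diaphragm, and 0 were higher. In rFibcd1 diaphragm 6 of the 12 citrate cycle genes fell, 3 of the 29 nuclear-encoded respiratory chain genes and 5 of the 13 mitochondrially encoded ones, and none rose; after scaling 4, 3 and 1 were lower. Whether these counts differ between rFibcd1 and mock was not tested.

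Other muscle genes known to respond to PGC-1α formed a further list. Of 8 tested, 4 fell in mock diaphragm and none rose, 4 fell and 2 rose in TA, and 3 fell in SOL. After scaling 4, 6 and 2 were lower and 0 were higher. Under rFibcd1 4 fell and none rose. Mb was at -0.58 in mock diaphragm and -1.63 in TA, Fndc5, the precursor of irisin, at -0.62 in mock diaphragm and -0.93 in SOL, and Ckmt2, the mitochondrial creatine kinase, at -1.28 in TA and -0.86 in SOL. Among PPAR-responsive genes Ucp3 (-1.47) and Acot1 (-1.34) fell in SOL, while Acot1 (0.91) and Ucp2 rose in TA. After scaling the SOL decreases (-1.57 and -1.43) and the Ucp2 increase in TA (0.59) were called, and Acot1 in TA was not tested. Acot1 and Acot2 are near-identical copies, so their reads may be split uncertainly. None of the 8 tested in mock diaphragm was called.

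Upstream regulators, partners and genes of mitochondrial DNA maintenance were called higher in TA at shares near that of all genes (56.4%). In mock diaphragm 30.9% of all genes were called higher and in SOL 17.5%. After scaling 18.2% were higher in TA, 7.38% in mock diaphragm and 15.2% in SOL, and 22%, 8.47% and 12.9% lower. Of 25 upstream kinases, deacetylases and transcription factors, 16 rose and 1 fell in TA, 6 rose in mock diaphragm, and 1 rose and 2 fell in SOL. After scaling 5 were higher and 5 lower in TA, and 0 were higher and 5 lower in mock diaphragm. Of 18 partners and corepressors, 10 rose and 1 fell in TA, 6 rose in mock diaphragm and 1 in SOL. After scaling 2 of these were higher and 5 lower in TA, 0 and 1 in mock diaphragm and 0 and 2 in SOL. Foxo1, a factor that drives atrophy genes, was among the highest in TA (1.10, and 0.66 after scaling) and in mock diaphragm (0.62, and 0.41), with only the values as deposited called. Nr4a3, an orphan receptor induced by exercise, rose in TA on both scales (1.30, and 0.91 after scaling). The mitochondrial deacetylase Sirt3 fell in TA (-0.53) and was called lower there after scaling too. Rxra, the partner of PPARs on DNA, rose in all 3 muscles (0.96 in TA, 0.48 in mock diaphragm and 0.45 in SOL), and after scaling only the TA value (0.46) was called. Of 17 genes of mitochondrial DNA maintenance found in the table, 15 were tested in TA, where 8 rose and 1 fell, and after scaling none rose and 5 fell. Mterf2, which binds mitochondrial DNA, fell in TA (-0.44) and mock diaphragm (-0.55) on both scales. Of 6 genes of mitochondrial fission and fusion, Fis1 rose in all 3 muscles by 0.25 to 0.32, and not after scaling.

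**Figure D4:**
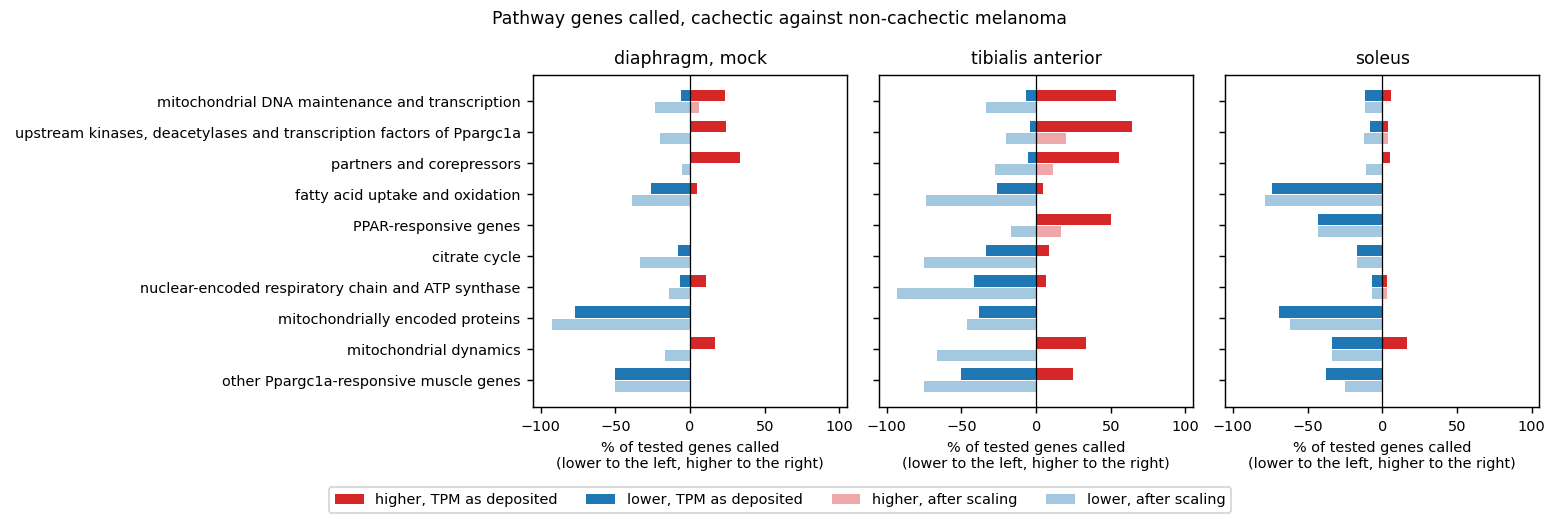
Share of the tested genes of each pathway list called lower (left) or higher (right) in CAC against NONCAC (horizontal axis, percent), from TPM as deposited (full colour) and after median-ratio scaling (pale). Fatty acid oxidation and mitochondrially encoded genes lie to the left in all 3 muscles, and the upstream list in TA has 16 genes higher before scaling and 5 after.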

How the data were processed

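The members and the pathway, marker and clock lists were chosen with earlier results of these data known. The authors deposited 1 table of TPM, for which their methods describe trimmed reads aligned to mouse mm10 (GRCm38) with CLC Genomics Workbench; the annotation is not given in the sources used here, and the labels and the methods name different kits and instruments. Each of the 59 columns sums to the same total, so the depth behind a value is unknown and no counting interval was given. Columns were assigned to groups by name and all were used; the study's own diaphragm analysis counted fewer CAC samples, and which it used is not given in the sources used here.

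Here log2(TPM + 1) was fitted with limma 3.58.1 in R 4.3.3 (eBayes with a trend, two-sided, Benjamini-Hochberg adjustment over all tested genes, called under 0.05) after keeping genes at 1 TPM or more in as many samples as the smallest group holds. The 4 diaphragm groups, TA and SOL had separate fits, and the 6 groups without rFibcd1 a joint one for comparisons between muscles. The study's own Dunn test, a pseudocount of 0.1, no filter, median-ratio scaling, TPM over nuclear genes, terms for library state and clock index and leaving out each library were alternatives; high- or low-state libraries alone, a block by column number and leaving out the TA library of lowest mitochondrial share on its own were added after seeing the data. No label says what a column number marks. Deviations from the group means of same-numbered columns correlated at 0.18 to 0.54 for TA and SOL, 0.13 to 0.52 for TA and diaphragm and 0.01 to 0.53 for SOL and diaphragm, and 8, 10 and 7 of 10 were best matches, so blocked values stand beside the unblocked ones where a call differs. The fit was tested on simulated data. Named genes outside the 10 were the 2 highest and 2 lowest called genes of each list, the markers, and the 5 most alike to Ppargc1a and Perm1 (mean of at least 5 TPM and SD of group means of at least 0.3). Permutations used numpy 2.4.6 and scipy 1.17.1.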

Additional observations from a re-analysis of the deposited data

Results flagged for a closer look

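Of 80 sets of values (10 members in 8 groups), 7 held a sample whose gap to the next was wide against the range of its group, and such a test marks about 1 in 20 sets by chance. Ppargc1a reached 114.8 TPM in 1 NONCAC rFibcd1 diaphragm (next 61.3 TPM) and 21.0 TPM in 1 CAC TA sample (next 15.1 TPM). Nrf1 at 5.50 TPM (next 2.97 TPM) and Gabpa at 23.2 TPM (next 15.7 TPM) were highest in the same CAC TA sample, the one with a mitochondrial share of 25.1%. In CAC mock diaphragm the lowest Ppargc1b was 2.89 TPM (next 8.29 TPM) and the lowest Ppara 12.7 TPM (next 22.4 TPM), in different samples. The lowest Gabpa was 6.495 TPM (next 14.2 TPM) in a CAC rFibcd1 diaphragm that also had the lowest Ppargc1a and Ppara of all diaphragms (8.61 and 2.80 TPM) and a mitochondrial share of 29.8%.

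The effect of the cachectic melanoma differed between muscles by the test of the difference itself for Esrra (0.57 on the log2 scale, diaphragm minus TA) and for Ppard (0.60) and Gabpa (0.57, TA minus SOL). The last 2 were not called after median-ratio scaling.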

How the results depend on the processing

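TPM keeps no depth, so low members such as Nrf1 carry an unknown counting error, and state and melanoma coincide in the limb muscles. A pseudocount of 0.1 changed no count of called members by more than 1.5 times. Median-ratio scaling gave 3 called members instead of 9 between diaphragm and TA, and 1 instead of 2 for the melanoma effect in TA against SOL. It reversed Ppargc1a in mock diaphragm (-0.054), TA (-0.14) and SOL (-0.035), Perm1 (-0.031), Nrf1 (-0.019), Tfam (-0.38) and Gabpa (-0.32) between diaphragm and TA, and Tfam (0.38), Gabpa (0.24) and Esrra (0.34) between TA and SOL. TPM over nuclear genes gave 2 members instead of 1 in rFibcd1 diaphragm (8.67% of genes called) and 5 instead of 3 in SOL (30.5%). Between TA and SOL levels it gave 4 instead of 7 (61.6%), and Ppargc1a was at -0.060 in mock diaphragm and -0.18 in SOL. Dunn tests gave 0 in rFibcd1 diaphragm, where they called 0 of 13426 genes, and 1 in SOL (20% of genes called). With no filter SOL also gave 1 (14.4% of genes called). The clock term gave 0 in rFibcd1 diaphragm (4.73% of genes called), and the state term put Ppargc1a at -0.35 in mock diaphragm. High-state libraries alone gave 0 members for the melanoma comparison in mock diaphragm (5.69% of 14159 genes called) and under rFibcd1 (0 genes called). They gave 2 for rFibcd1 in CAC mice (5.57%), with Ppargc1a at -0.42 in the mock comparison and 0.37 for the interaction. They also gave 0 correlations instead of 4, against 2 after scaling. The cause was not tested.

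Leaving out 1 library gave 0 to 2 members in rFibcd1 diaphragm, 0 to 5 in SOL (Ppargc1a -0.13 to 0.21), 0 to 2 for the melanoma effect in diaphragm against TA and 1 to 3 in TA against SOL. Without the CAC TA library of low mitochondrial share 0 members were called in the former (2.36% of genes called) and 1, Gabpa, in the latter (11.8%). No paired design could be taken from the labels. With the column number as a replicate block, 4 members instead of 1 were called for the melanoma effect in diaphragm against TA, 1 instead of 0 against SOL and 5 instead of 2 in TA against SOL.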
